A study of Mus musculus with 9 samples.

Results

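The miR-183 cluster is a group of 3 microRNA hairpins, miR-183, miR-96 and miR-182, that lie close together on mouse chromosome 6. Its 5 mature products, mmu-miR-183-5p, mmu-miR-183-3p, mmu-miR-96-5p, mmu-miR-182-5p and mmu-miR-182-3p, written below without the species prefix, were taken by name from the 1915 mouse miRNA identifiers of each table, of which 479 were listed above 0 in at least 1 library. All 5 were listed in at least 1 library, and the 3 products of the 5p arms were listed in all 9.

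The libraries hold small RNA from extracellular vesicles that a conditionally immortalized mouse podocyte line released into its medium. Podocytes are the epithelial cells that cover the capillaries of the kidney filter. In every group a differentiation period of 10 days, with 5% serum, preceded the treatment of 48 h, and vesicles were precipitated from the supernatant with a polymer reagent. The high glucose group (n = 3) received 30 mM glucose, the mannitol group (n = 3) received 5.3 mM glucose with 24.7 mM mannitol as the control for osmolality, and the normal glucose group (n = 3) received 5.3 mM glucose. The labels name neither separate cultures nor a batch, so every p-value rests on a spread between libraries that may be purely technical. In vesicle preparations, fewer vesicles and less of a miRNA per vesicle cannot be told apart.

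In vertebrates the hairpins of this cluster are thought to be cut from a shared primary transcript. Its miRNAs are best known from sensory organs: they are abundant in photoreceptors and hair cells of the mouse, and changes in the seed of miR-96 cause hearing loss in mice and people. They are also abundant in many epithelial cells and raised in many epithelial tumours, and a transcription factor of the FoxO family, Foxo1, is among the best-studied targets of miR-182 and miR-96. A miRNA pairs with its targets mainly through bases 2 to 8 from its 5′ end, the seed. Of the 2 arms of a hairpin usually one is kept as the guide and the other is degraded.

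The mature sequences are shown first because the relation between the members lies in their 5′ ends. They come from RefSeq for build GRCm38.p6, in which all 5 members were found, and are written 5′ to 3′ with the seed in capitals.
miR-183-5p: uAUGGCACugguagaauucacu
miR-96-5p: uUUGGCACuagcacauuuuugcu
miR-182-5p: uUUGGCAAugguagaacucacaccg
miR-183-3p: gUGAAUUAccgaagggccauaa
miR-182-3p: gUGGUUCUagacuugccaacu

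Counted from 1 at the 5′ end, miR-183-5p and miR-96-5p differ in the first 8 bases only by A2U, and miR-96-5p and miR-182-5p only by C8A. Between miR-183-5p and miR-182-5p both changes are present, A2U and C8A. The 3 seeds of the 5p arms are thus close but not identical, and the seed families are separate. Over the whole length the order is another: without gaps, miR-183-5p and miR-182-5p are identical at 18 of 22 bases (81.8%), miR-183-5p and miR-96-5p at 13 of 22 (59.1%), and miR-96-5p and miR-182-5p at 12 of 23 (52.2%). No other mature mouse miRNA of the RefSeq table has the seed of miR-183-5p or of miR-182-5p. The seed of miR-96-5p is shared by miR-1271-5p, which was not analysed here. The GC content is 40.9% for miR-183-5p, 39.1% for miR-96-5p and 48.0% for miR-182-5p, and their lengths are 22, 23 and 25 bases.

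The hairpins are shown to place both arms, which are in capitals. All are on the minus strand, in the order Mir183 (chr6:30169668-30169737), Mir96 (chr6:30169446-30169551) and Mir182 (chr6:30165918-30165992) of GRCm38.p6.
Mir183: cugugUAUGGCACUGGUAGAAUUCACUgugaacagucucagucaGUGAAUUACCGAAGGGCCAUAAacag
Mir96: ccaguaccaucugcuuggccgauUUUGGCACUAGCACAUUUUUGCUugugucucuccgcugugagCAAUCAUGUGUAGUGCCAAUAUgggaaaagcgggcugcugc
Mir182: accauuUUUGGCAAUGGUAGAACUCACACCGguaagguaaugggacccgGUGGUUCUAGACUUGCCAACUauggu

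Mir183 and Mir96 are 116 bases apart and Mir182 follows 3453 bases further on, so that the cluster spans 3820 bases. In GENCODE M21, of the same assembly, no other gene overlaps this span, and the hairpins lie in no annotated exon, intron or UTR of a host gene. The nearest gene on the side of Mir183 is Rncr4, a long noncoding RNA known from the mouse retina, which starts 3155 bases away on the plus strand. On the side of Mir182 the nearest is Nrf1, a protein-coding gene of the plus strand whose end lies 12459 bases away.

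Levels are in CPM, the count of a miRNA divided by the summed miRNA counts of its library and scaled by 1e+06. Mature miRNAs are short enough to be read whole, so levels need no correction for length. The libraries were amplified, the labels name no molecular barcodes, and adapter ligation favours some sequences, so ratios between different miRNAs are ratios of reads and not of molecules. Total miRNA counts were 725211 to 2553690 in high glucose, 1329426 to 2269776 with mannitol and 1087144 to 1539514 in normal glucose. No count from 1 to 9 occurs in any table, and a listed 0 therefore stands for at most 9 reads, or 3.52 to 12.4 CPM depending on the library. Intervals of single libraries cover counting error only. All 6 miRNAs of a podocyte list were listed in every library, with miR-30a-5p at a mean of 116618 CPM. Of miRNAs of other cells, the liver miRNA miR-122-5p stood at 9566 to 21078 CPM in high glucose, 11659 to 22511 CPM with mannitol and 9508 to 21809 CPM in normal glucose. The blood list, led by miR-486a-5p and miR-451a, summed to 3135 to 4564 CPM in high glucose, 3848 to 11009 CPM with mannitol and 5059 to 8655 CPM in normal glucose. In it miR-142a-3p was listed at 0 throughout, and 2 of 7 members were listed in all 9 libraries. The medium held serum, and how much of any miRNA came from it was not tested.

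The mature products of the 3 hairpins had very unequal levels in reads. By the mean over 9 libraries miR-183-5p ranked 10th of all identifiers at 25289 CPM, miR-182-5p 26th at 8848 CPM and miR-96-5p 185th at 66.2 CPM. The means of miR-183-5p and miR-96-5p thus differed 382-fold although their hairpins are neighbours, whereas miR-183-5p and the distant miR-182-5p differed 2.86-fold. Between libraries the ranks ran from 8 to 13 for miR-183-5p, from 21 to 34 for miR-182-5p and, more widely, from 162 to 235 for miR-96-5p. The neighbours of miR-183-5p in the order of levels, miR-151-3p at 27841.5 ± 8684 CPM and miR-148a-3p at 23387 ± 4324 CPM, lay within the spread of its own level of 25289 ± 3977 CPM (SD, n = 9 libraries). Likewise miR-182-5p, at 8848 ± 1557 CPM, stood within the spread of miR-423-5p (9395 ± 4384 CPM) and miR-378c (7924 ± 1943 CPM).

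**Figure D1:**
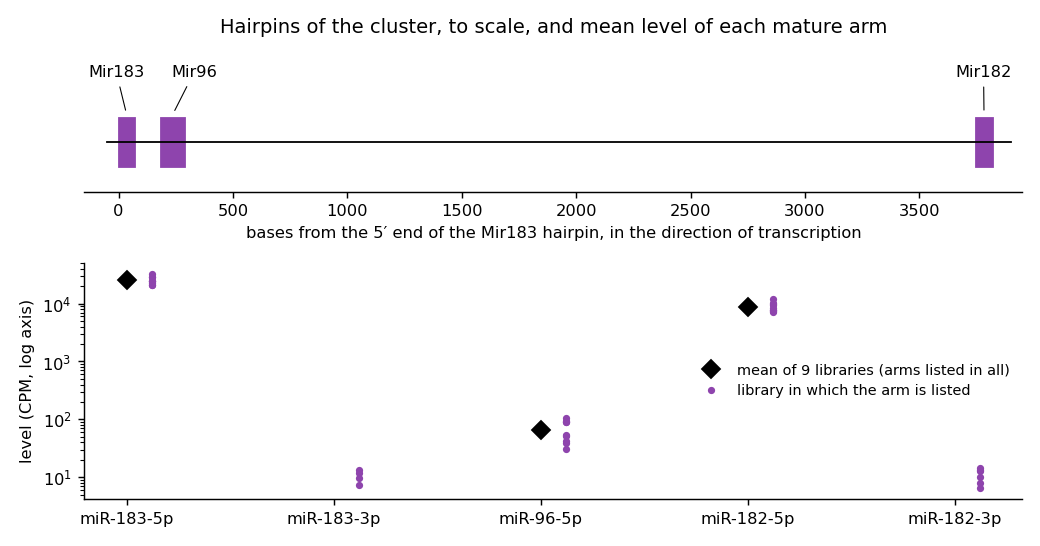
The upper panel draws the 3 hairpins to scale, with distance in bases from the 5′ end of Mir183 in the direction of transcription, and the lower panel gives the level of each mature product in CPM on a log axis. Points are libraries in which the product is listed and diamonds are means of 9 libraries, drawn for products listed in all; the mean of miR-183-5p is 382 times and that of miR-182-5p 134 times the mean of miR-96-5p, and both 3p products lie lower still.

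The minor arms were near the limit of detection. The miR-183-3p product had 0, 0 and 19 reads in high glucose, 0, 0 and 27 with mannitol, and 15, 0 and 15 in normal glucose. The miR-182-3p product had 0, 10 and 33 reads in high glucose, 0, 23 and 23 with mannitol, and 10, 0 and 15 in normal glucose. Both were thus at or near the smallest listed count in every group, and no fold change between groups is given for them. Summed over all libraries, miR-183 gave 331880 reads of its 5p arm and 76 of its 3p arm (99.98% from the 5p arm), and miR-182 gave 117670 and 114 (99.90%). The lowest 5p share of a library was 99.94% for miR-183 and 99.81% for miR-182. With each listed 0 set to 9 reads the mean over libraries was 99.96% in place of 99.98% for miR-183 and 99.88% in place of 99.91% for miR-182. Such a strong preference was common here, since the median share of the major arm over 62 hairpins with at least 10000 reads was 99.90%, and 23 of the 62 were more one-sided than miR-183 and 30 more than miR-182. The 3p arm of miR-96, which is no member, was listed at 0 in all 9 libraries.

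Of all counts from the 5 members, miR-183-5p took 73.2% ± 1.65 in high glucose, 74.8% ± 2.14 with mannitol and 73.8% ± 2.10 in normal glucose (SD, n = 3 each). The share of miR-182-5p was 26.6% ± 1.60, 25.0% ± 2.12 and 26.0% ± 1.96 in the same order of groups. The remaining share was almost all miR-96-5p, at 0.209% ± 0.0852 in high glucose, 0.177% ± 0.106 with mannitol and 0.209% ± 0.127 in normal glucose. The ranges of all 3 shares overlapped between the groups.

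The most abundant member, miR-183-5p, stood at 32985, 28375 and 24563 CPM in high glucose, at 24324, 22560.3 and 20694 CPM with mannitol, and at 28460 (28459.6), 24488 and 21155 CPM in normal glucose. All 3 high glucose libraries lay above all 3 mannitol libraries, with a small gap between the lowest high glucose and the highest mannitol library, while normal glucose overlapped both groups. The product miR-182-5p, which shares most of its sequence with miR-183-5p, stood at 11928, 9503 and 9706 CPM in high glucose, at 7284, 7421 and 7758 CPM with mannitol, and at 10062, 7739.55 and 8234 CPM in normal glucose. High glucose again lay wholly above mannitol, and here the gap was wider than the whole range of the mannitol libraries. Normal glucose reached into the range of high glucose through replicate 1 and into that of mannitol through replicate 2. At each replicate number both miRNAs were highest in high glucose and lowest with mannitol, though the numbers were not taken as pairs.

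The hearing-related miR-96-5p, with 37 to 243 reads a library, stood at 51.0, 90.1 and 95.2 CPM in high glucose, at 39.1, 90.0 and 30.8 CPM with mannitol, and at 41.6, 54.3 and 103.9 CPM in normal glucose. The 3 groups overlapped, and counting error alone was wide: the 37 reads of high glucose replicate 1 have an exact 95% binomial interval of 35.9 to 70.3 CPM. Its levels over the 9 libraries had an SD of 0.64 on the log2 scale, close to the 0.56 that was the median of 361 tested miRNAs. The corresponding SD was 0.22 for miR-183-5p and 0.24 for miR-182-5p, and 3.05% and 5.26% of all tested miRNAs, most of them less abundant, varied less. Among the 41 miRNAs with a mean of at least 5000 CPM their SDs ranked 3rd and 8th from the smallest. Highest and lowest library differed 1.59-fold for miR-183-5p, 1.64-fold for miR-182-5p and 3.37-fold for miR-96-5p.

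**Figure D2:**
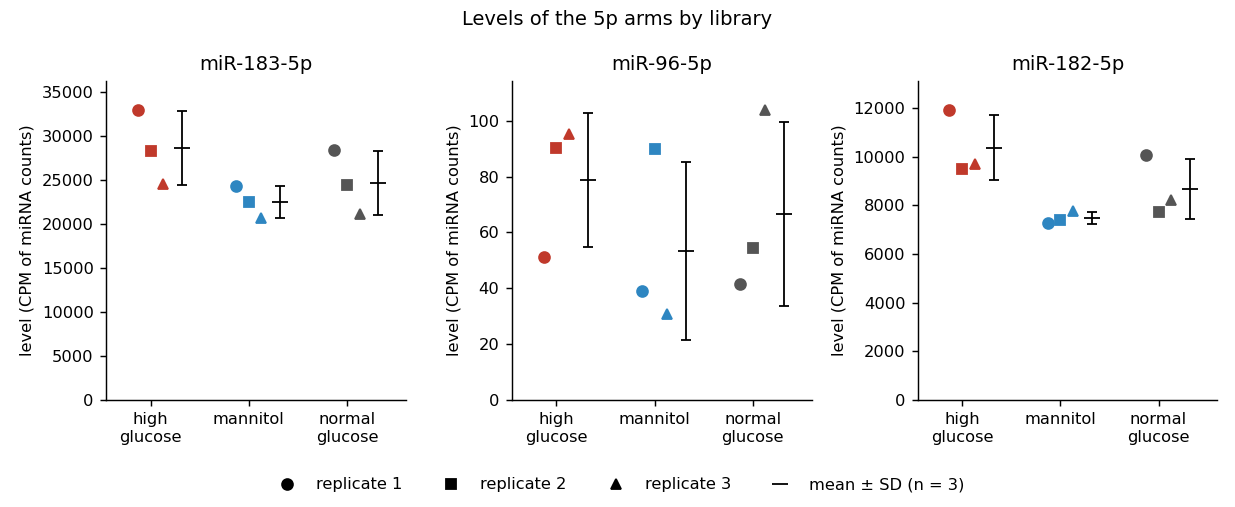
Level of each 5p arm in CPM of miRNA counts (y axis from 0) in the 3 libraries of each group, with the mean and SD beside them. For miR-183-5p and miR-182-5p all high glucose points lie above all mannitol points, and normal glucose overlaps both; for miR-96-5p the groups overlap.

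The mannitol group matches the osmolality of high glucose, so this comparison asks what glucose itself changes. Against mannitol, miR-182-5p was 0.61 higher on the log2 scale (SE 0.24, 95% interval 0.09 to 1.12), with a mean of 10379 ± 1345 CPM in high glucose, against 7487 ± 244 CPM with mannitol (SD, n = 3 each). It had an unadjusted p of 0.0239 in edgeR's quasi-likelihood fit and did not pass after adjustment over all 361 tested miRNAs (adjusted p = 0.704), where edgeR called 0 miRNAs (0%) and 5.26% had an unadjusted p under 0.05, 2.22% with a higher level in high glucose. For miR-183-5p the difference was 0.49 (SE 0.25, 95% interval -0.03 to 1.02), with 28641 ± 4217 CPM in high glucose, against 22526 ± 1815 CPM with mannitol. For miR-96-5p it was 0.71 (SE 0.48, 95% interval -0.31 to 1.73), with 78.8 ± 24.2 CPM in high glucose, against 53.3 ± 32.04 CPM with mannitol. Neither passed in edgeR (adjusted p = 0.704 and 0.723). The value of miR-96-5p rested on single libraries: in edgeR it was 1.47 without mannitol replicate 2 (adjusted p = 0.0780), the mannitol library with the highest level, and 0.42 without mannitol replicate 3 (adjusted p = 0.999).

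The call of miR-182-5p depended on the tool. With DESeq2 it passed, at a log2 fold change of 0.60 and an adjusted p of 0.0120, and was the only 1 of 361 miRNAs (0.277%) called in that comparison, while limma-voom did not call it (adjusted p = 0.552). When each of the 9 libraries was left out in turn, DESeq2 called it in 3 of 9 fits, with an adjusted p from 0.00387 to 0.996 and a log2 fold change from 0.56 to 0.66. The fits that kept the call lacked high glucose replicate 3, mannitol replicate 2 or normal glucose replicate 1, and without mannitol replicate 2 DESeq2 called 46 miRNAs in all. With DESeq2 on all 479 listed miRNAs the call was lost (adjusted p = 0.105).

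In CPM, 2 of 5 members had high glucose libraries wholly above the mannitol libraries, beside 2.49% of all tested miRNAs (10.2% did not overlap in either direction). No miRNA of the marker lists passed the test in edgeR either, and their median difference was -0.57 for the 5 tested blood miRNAs, -0.71 for the 5 muscle and neural miRNAs, -0.20 for the liver miRNA miR-122-5p and 0.27 for the 6 podocyte miRNAs. Their part in the differences of the cluster was not tested.

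Which scale is used decides the size of these differences. The deposited normalized values divide each count by 1 constant per library. In units of 1e+06 it was 21.2 to 31.9 in high glucose, 22.5 to 23.6 with mannitol and 22.1 to 23.9 in normal glucose, and miRNA counts were 3.43% to 8.01%, 5.91% to 9.71% and 4.55% to 6.96% of it. On that scale miR-182-5p stood at 409, 530.4 and 777 RPM (reads relative to that constant) in high glucose, at 431, 500.1 and 753 RPM with mannitol, and at 700.2, 352 and 404 RPM in normal glucose. The groups overlapped throughout, and the fitted difference between high glucose and mannitol was 0.028 for miR-182-5p and -0.086 for miR-183-5p. The median of all tested miRNAs was -0.59 on that scale and -0.04 in the TMM-scaled fit, and relative to it miR-182-5p was 0.62 and 0.65 higher, and miR-183-5p 0.51 and 0.53 higher. A change of scale moves all miRNAs of a library together, so most of it cancels in values relative to the median. Their likeness on both scales is thus no separate evidence. Of all tested miRNAs 17.2% had a value above 0 on that scale, 46.5% with TMM and 34.6% with the miRNA total. High glucose replicate 1 was the shallowest library and had the highest level of both miRNAs in CPM; without it edgeR's differences were 0.51 for miR-182-5p and 0.39 for miR-183-5p.

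Set against normal glucose, high glucose combines added glucose with added osmolality. All 3 5p arms had positive differences that were smaller than against mannitol. The log2 fold change was 0.29 for miR-183-5p (SE 0.25, 95% interval -0.24 to 0.81), with 24701 ± 3657 CPM in normal glucose. It was 0.40 for miR-96-5p (SE 0.48, 95% interval -0.61 to 1.42), with 66.6 ± 32.9 CPM in normal glucose, and 0.34 for miR-182-5p (SE 0.24, 95% interval -0.17 to 0.86), with 8678 ± 1223 CPM in normal glucose. With 1 library left out, edgeR's value for miR-96-5p ran from 0.15 without normal glucose replicate 1 to 0.74 without normal glucose replicate 3. None passed in edgeR with all libraries (adjusted p = 0.995 for each), which called 0 of 361 miRNAs (0%). At an unadjusted p under 0.05 it had 10 (2.77%), 0.831% with a higher level, and neither limma-voom nor DESeq2 made an adjusted call. No 5p arm separated the groups in CPM, beside 9.42% of tested miRNAs that did. The intervals leave room for a difference of up to 0.86 for miR-182-5p, so the data do not show that the groups are alike.

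The mannitol and normal glucose groups differ by the added mannitol. All 3 5p arms had negative differences, at -0.20 for miR-183-5p (SE 0.25, 95% interval -0.73 to 0.32), -0.31 for miR-96-5p (SE 0.48, 95% interval -1.33 to 0.71) and -0.27 for miR-182-5p (SE 0.24, 95% interval -0.78 to 0.25). None passed in edgeR (adjusted p = 0.9996 for each), where 0 of 361 miRNAs (0%) were called. At an unadjusted p under 0.05 there were 5 (1.39%), 0.831% with a higher level, and neither limma-voom nor DESeq2 made an adjusted call. No 5p arm separated the groups in CPM, beside 3.32% of tested miRNAs that did, 2.22% with a higher level in mannitol. Divided by the library constant, all 3 values were positive (0.27, 0.12 and 0.21), with the median of all tested miRNAs at 0.50 and 89.8% of them above 0, beside 52.1% with TMM. Each group enters a pair of the comparisons, so their values are not separate evidence.

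**Figure D3:**
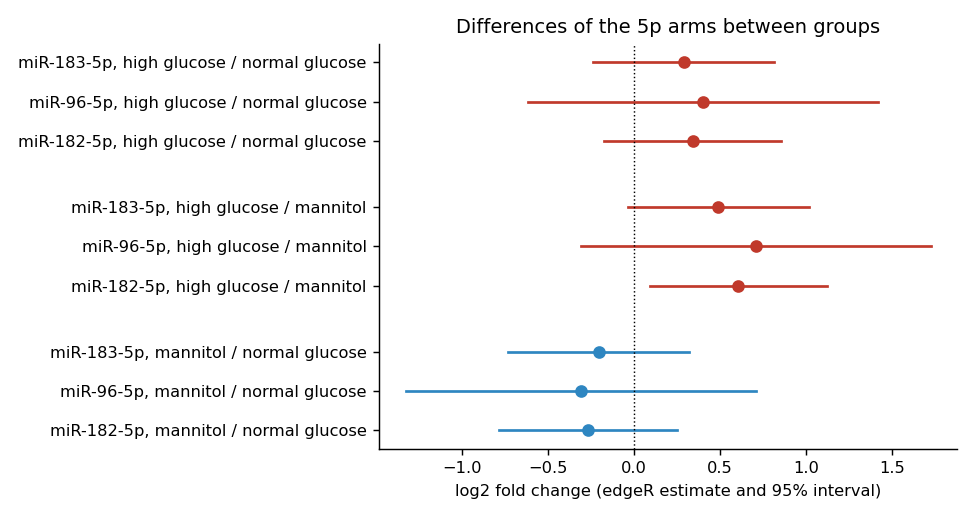
Log2 fold changes of the 3 5p arms in the 3 comparisons, from the joint edgeR fit of 9 libraries; points are estimates, lines are 95% intervals and the dotted line marks no difference. Only the interval of miR-182-5p in high glucose against mannitol, 0.09 to 1.12, lies wholly on one side of 0 before adjustment.

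Summed over its 5 members, the cluster made up 4.50%, 3.80% and 3.44% of miRNA counts in high glucose, 3.16%, 3.01% and 2.85% with mannitol, and 3.86%, 3.23% and 2.95% in normal glucose. The high glucose libraries again lay above the mannitol libraries in 9 of 9 pairs, with a ratio of geometric means of 1.29 and a two-sided exact permutation p of 0.1, the smallest that 3 against 3 libraries allow. Against normal glucose high glucose was higher in 7 of 9 pairs (ratio 1.17, exact permutation p = 0.3), and mannitol was higher than normal glucose in 2 of 9 (ratio 0.904, exact permutation p = 0.3). These pairs set every library of a group against every library of the other. At each replicate number the sum was highest in high glucose and lowest with mannitol. Over the 15 exact tests of library measures of the cluster the smallest Benjamini-Hochberg adjusted p was 1. Divided by the library constant, the sum averaged 2138 ± 606 RPM in high glucose, 2222 ± 478 RPM with mannitol and 1867 ± 708 RPM in normal glucose (SD, n = 3 each), and the groups overlapped.

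**Figure D4:**
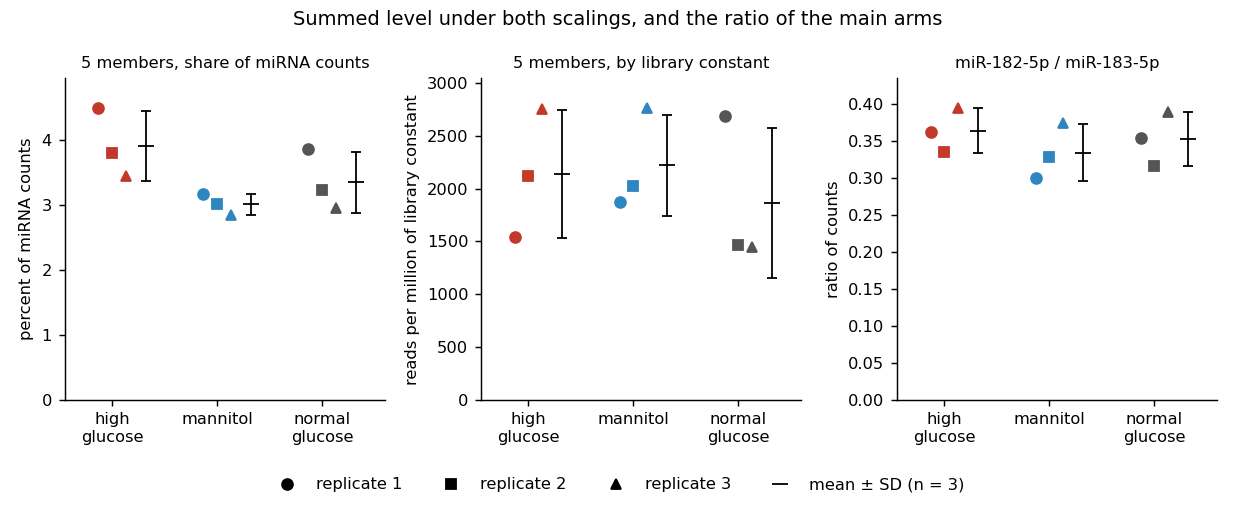
Summed level of the 5 members as percent of miRNA counts (left) and in RPM by the library constant (middle), and the ratio of miR-182-5p to miR-183-5p counts (right), by library, with mean and SD. High glucose lies above mannitol in the left panel at 3.44% to 4.50% against 2.85% to 3.16%, overlaps it in the middle panel, and the ratio stays between 0.299 and 0.395 in all libraries.

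Ratios within a library do not depend on how libraries are scaled. The ratio of miR-182-5p to miR-183-5p was 0.362, 0.335 and 0.395 in high glucose, 0.299, 0.329 and 0.375 with mannitol, and 0.354, 0.316 and 0.389 in normal glucose. Its values overlapped between all groups, with exact permutation p-values of 0.4 for high glucose against mannitol and 0.7 for both other comparisons. Between same-numbered libraries this ratio was higher in high glucose in every pair, against mannitol and against normal glucose (exact permutation p = 0.25 each). That is the smallest p that 3 differences allow. The ratio of miR-96-5p to miR-183-5p averaged 0.00287 ± 0.00119 in high glucose, 0.00236 ± 0.00141 with mannitol and 0.00286 ± 0.00181 in normal glucose (SD, n = 3 each; exact permutation p from 0.7 to 0.9). The 5p shares of miR-183 and miR-182 gave exact permutation p-values from 0.4 to 1, and they rest on the few 3p reads described above.

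Across the 9 libraries miR-182-5p and miR-183-5p varied together. Their log2(CPM + 1) levels had a Pearson's r of 0.829 (exact permutation p = 0.00580, adjusted over 3 pairs 0.0174) and a Spearman's rho of 0.717 (exact permutation p = 0.0369, adjusted 0.111). Without high glucose replicate 1 and mannitol replicate 3, the libraries farthest from the median of miR-183-5p, r was 0.662 (n = 7), and with group means removed it was 0.655. The permutation treated all 9 libraries as exchangeable, so its p also takes in differences between groups and any difference shared by same-numbered libraries. From replicate 1 to 2 to 3, miR-183-5p fell in every group and miR-182-5p in none. Removing group means leaves such an order in place, and its part in r was not tested. No p was computed with group means removed. Over all alternatives r ran from 0.655 to 0.949. The labels give no batch, and with 3 libraries a group no r was computed within a group.

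The other pairs did not. For miR-183-5p and miR-96-5p r was -0.08 (exact permutation p = 0.838) and rho 0.0333 (exact permutation p = 0.948), and r was -0.413 without the same pair of libraries. For miR-96-5p and miR-182-5p r was 0.0823 (exact permutation p = 0.838) and rho 0.183 (exact permutation p = 0.644), and r was 0.0603 without high glucose replicate 3 and normal glucose replicate 3. Adjusted over the 3 pairs, both r values had a p of 0.838 and both rho values one of 0.948. The direction of the first of these flipped to 0.285 with TMM-scaled CPM.

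**Figure D5:**
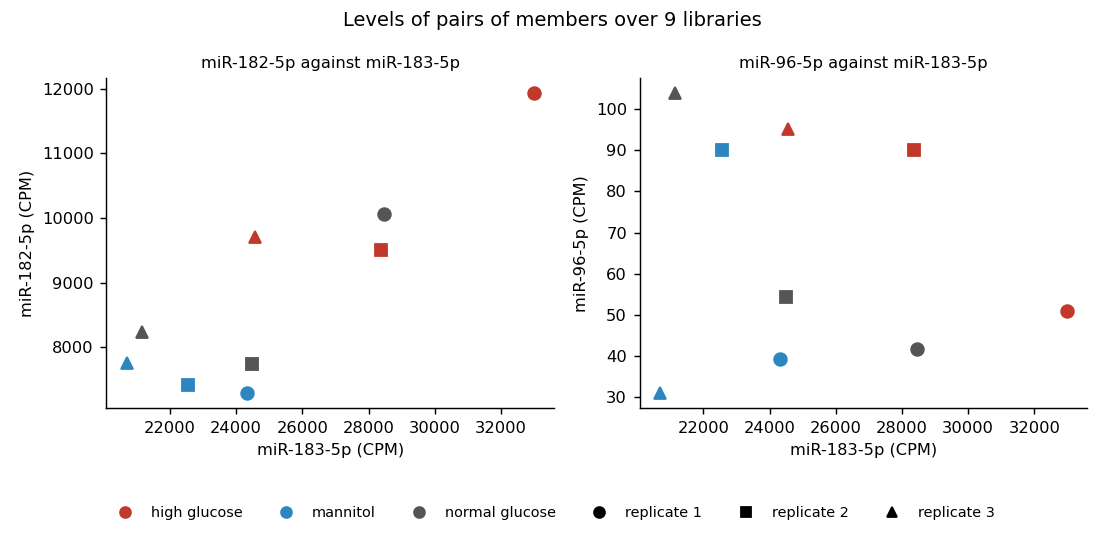
Level of miR-182-5p (left) and of miR-96-5p (right) against miR-183-5p in CPM, 1 point per library, coloured by group and shaped by replicate number. The left panel rises from mannitol at the lower left to high glucose replicate 1 at the upper right (r = 0.829), and the right panel shows no common slope (r = -0.08).

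Among the other 360 tested miRNAs, miR-182-5p was the one most like miR-183-5p by r over the 9 libraries, and miR-183-5p the one most like miR-182-5p. The next closest to miR-183-5p was miR-30c-5p at 0.801, and the next closest to miR-182-5p was miR-374b-5p at 0.825. By contrast miR-96-5p ranked 178th of 360 for miR-183-5p and 129th for miR-182-5p, and the miRNA most like it was miR-218-5p, at 0.949. These neighbours were named after their values were seen, and the libraries share depth and composition, so these are descriptions. By the mean r to all 5 members the closest miRNAs were miR-429-3p (0.458), miR-19b-3p (0.453), miR-127-5p (0.441), miR-186-5p (0.408) and miR-362-5p (0.406), values that include the sparse 3p arms.

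The log2 ratio of miR-182-5p to miR-183-5p had an SD of 0.14 over the 9 libraries. The other pairs of this cluster were less steady, with an SD of 0.71 for miR-183-5p and miR-96-5p and 0.68 for miR-96-5p and miR-182-5p. For 8 other miRNA clusters of the mouse genome an arm of each hairpin was taken as the guide by name. They gave 16 pairs, with r from -0.575 to 0.920 (median 0.157). In the 15 pairs listed in all libraries the SD of the ratio ran from 0.23 to 1.15 (median 0.43). For miR-106b the 5p arm taken had 1389 reads, fewer than the 25776 of the 3p arm, and for miR-125a 15103, fewer than 20161. Counts are per mature name, so products encoded at several loci were not split by locus. Among 820 pairs of the 41 miRNAs with a mean of at least 5000 CPM, 6 had a steadier ratio than miR-182-5p and miR-183-5p. The median SD of these pairs was 0.49. Large differences in level within a cluster were common in these libraries. Between the arms taken as guides, the higher exceeded the lower by a median of 22.3-fold over the 16 pairs. The difference was 455-fold for miR-30d-5p over miR-30b-5p. That of 339-fold for miR-25-3p over miR-106b-5p sets the major arm of miR-25 against the minor arm of miR-106b.

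The miR-200 family, miR-203 and miR-205 were followed as other epithelial miRNAs. In mammals ZEB1 is known to repress the miR-200 genes. Of the 7 members of this list, 4 were listed in all 9 libraries, and miR-141-3p, at a mean of 1.78 CPM, in only 2. The filter on low counts was passed by 6, and in edgeR 0 rose and 0 fell in each comparison. Led by miR-200b-3p and miR-200a-3p, the list summed to 4152 to 5424 CPM in high glucose, 3487 to 4798 CPM with mannitol and 3614 to 4426 CPM in normal glucose, so that the groups overlapped. Against mannitol the high glucose difference was above 0 for 3 of the 6 and below 0 for 3. It was 0.39 for miR-200b-3p (SE 0.27), 0.28 for miR-200a-3p (SE 0.34) and 0.50 for miR-429-3p (SE 0.31), and -1.50 for miR-205-5p (SE 0.96), -0.93 for miR-200c-3p (SE 1.33) and -0.084 for miR-203-3p (SE 0.35). The median of the list was 0.10, beside 0.61 for the 3 5p arms of the cluster and -0.04 for all tested miRNAs. Against normal glucose the list median was 0.24, beside 0.34 for the 5p arms and -0.04 for all tested, and for mannitol against normal glucose it was 0.04, beside -0.27 and 0.01.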

How the data were processed

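Small RNA libraries of podocyte vesicles were made by adapter ligation and gel selection, per the labels' protocols. The submitters' processing notes name bcl2fastq, BWA and mm10, without versions or settings. Per the file headers, the deposited tables hold whole-number counts per miRNA and normalized values, in RPM, found here to be each count over 1 constant per library; what the constant counts is not stated. Counts below 10 do not occur.

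Groups came from the treatment label; unnumbered titles were taken as replicate 1. CPM used the summed miRNA counts. Differences came from edgeR 4.0.16 in R 4.3.3 (TMM, expression filter by group, robust quasi-likelihood test, joint fit of 9 libraries, Benjamini-Hochberg adjustment over 361 miRNAs, threshold 0.05). The script was tested on simulated data. Library measures were compared by exact permutation tests. Alternatives were DESeq2 1.42.0, limma-voom 3.58.1, no filter, other scalings, zeros set to 9 reads, a replicate block, fits of 6 libraries and each library left out. DESeq2 without the filter and with libraries left out was added after seeing the data. Libraries of a group differed by a chi-square of 74.8 to 645 per degree of freedom, so none was counted as a repeat of another. Sequences are RefSeq's, build GRCm38.p6.

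The members and lists were chosen with earlier results of these data known. By rule, names were due to all members, miR-96-3p, miRNAs with a member's seed and the 5 closest by mean r. They were also due to the 2 highest of each list and to miRNAs past the threshold where 5 or fewer passed. The rule was not kept to fully: as markers, only miR-30a-5p is described for the podocyte list and only the median for the muscle and neural list. Further miRNAs are named as neighbours in level or in r, from other clusters or lists, or as calls of alternative fits.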

Additional observations from a re-analysis of the deposited data

How the results depend on the processing

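Of 474 recomputed values, 426 kept sign, call count and side of the threshold where these apply. Exact tests of library measures could not cross it, and most correlations had no p. The number of called miRNAs, 0 by edgeR in each comparison, was 2 without the filter for high against normal glucose (miR-6538 and miR-9-5p), 3 for high glucose against mannitol (miR-6538, miR-1a-3p and miR-19b-3p) and 1 for mannitol against normal glucose (miR-1a-3p). None is a cluster member. DESeq2 called 1 for high glucose against mannitol, miR-182-5p. With 1 library left out, edgeR called 0, other than 1 (miR-19b-3p) for high glucose against mannitol without mannitol replicate 2. DESeq2 then called 0 other than 46 without mannitol replicate 2, 6 without high glucose replicate 3 and 1 without normal glucose replicate 1 for high glucose against mannitol, 3 without high glucose replicate 3 for high against normal glucose, and 1 without mannitol replicate 2 and 2 without normal glucose replicate 1 for mannitol against normal glucose. Among 243 recomputed fold changes of the 5p arms, 4 passed the threshold, all for miR-182-5p by DESeq2 in high glucose against mannitol, where its adjusted p ranged from 0.00387 to 0.9998 over all alternatives. The cause was not tested.

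Division by the library constant turned the sign of miR-183-5p in high glucose against mannitol (-0.086) and of miR-183-5p (0.27), miR-96-5p (0.12) and miR-182-5p (0.21) in mannitol against normal glucose. It turned the summed log2 level to -0.074 for high glucose against mannitol and 0.29 for mannitol against normal glucose.

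With 1 library left out, miR-96-5p in mannitol against normal glucose ran from -0.99 to 0.091 in edgeR and from -1.03 to 0.054 in DESeq2, both positive only without normal glucose replicate 3. The log2 difference of the miR-182-5p to miR-183-5p ratio ran from -0.031 to 0.12 for high against normal glucose, and that of the miR-96-5p to miR-183-5p ratio from -0.31 to 0.57 there and from -0.70 to 0.24 for mannitol against normal glucose. Differences of the 5p share of miR-182, in percentage points, ran from -0.0395 to 0.0426 for high against normal glucose, from -0.00655 to 0.0908 for high glucose against mannitol and from -0.0863 to 0.0110 for mannitol against normal glucose, and those of miR-183 from -0.0101 to 0.0192 and from -0.0020 to 0.0327 in the last pair of these comparisons.

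The correlation of miR-183-5p and miR-96-5p became 0.285 with TMM-scaled CPM, 0.299 with the library constant and -0.566 with group means removed, and ran from -0.466 to 0.129 with 1 library left out. That of miR-96-5p and miR-182-5p became -0.563 with group means removed and ran from -0.0814 to 0.256.

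The numbers in the titles were not taken as pairs: deviations of same-numbered libraries correlated from -0.0684 to 0.510 over 9 pairs. They were above 0.1 in 7, all those with high glucose and 1 of 3 of mannitol with normal glucose. Libraries correlated best with their own number in 15 of 18 comparisons, a hint from the data only. With the replicate block edgeR called 0 in each comparison, and miRNAs at an unadjusted p under 0.05 were 19 in place of 10, 52 in place of 19 and 17 in place of 5, in the order of comparisons given first. In that block miR-182-5p had 0.61 against mannitol (adjusted p = 0.306 in edgeR). Between same-numbered libraries the summed level was higher in high glucose in 3 of 3 pairs against either other group. Each had an exact permutation p of 0.25, the smallest possible. Depth limits the 3p arms most.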
